A study of Danio rerio with 6 samples.

Results

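The let-7 family was measured by small RNA sequencing in whole zebrafish embryos at 24 and 48 h post-fertilization (hpf), with and without knockdown of tbx5a, a T-box transcription factor of heart and fin development. The members were taken by name, as every mature miRNA from dre-let-7a to dre-let-7j in the deposited table, and are written without the species prefix where they recur. They were 10 of the 230 mature miRNAs listed. Embryos of the AB strain had been injected at the 1-cell stage with 1.5 ng of MO-Tbx5a, a morpholino against tbx5a, or with 1.5 ng of MO-Ct, the control morpholino. Each library came from 50 pooled embryos, with 2 batches per morpholino at 24 hpf and 1 library per morpholino at 48 hpf, which gave 6 libraries. A morpholino blocks an mRNA and leaves the gene intact, and small RNA libraries give no measure of the Tbx5a protein, so the knockdown could not be checked in them.

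The let-7 miRNAs are among the most conserved animal miRNAs. In Caenorhabditis elegans, where let-7 was found, it drives the passage from larval to adult cell fates, and in vertebrates mature let-7 accumulates as embryonic cells differentiate. The RNA-binding protein Lin28 blocks the maturation of let-7 precursors, and mature let-7 represses lin28 in return, together with growth genes such as Hmga2, Myc and Ras family members in mammals. Members share a seed and often the same targets, and most vertebrate genomes carry several copies that are transcribed together with other let-7 genes or with miR-99, miR-100 and miR-125 family miRNAs. No mature sequence was read here.

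Values are normalized reads, the reads of a library divided by its size factor as the authors deposited them. The steps between the deposited values gave back whole numbers, taken as reads. These came to between 1699876 and 3148888 on mature miRNAs per library, with 1 read worth 0.466 to 1.87 normalized reads. The study lists fewer miRNA reads for every library, by factors that differ between libraries, and the reason was not tested. Intervals on reads take 1 step as 1 read and cover counting error only. Nothing in the labels tells whether the batches came from separate matings, so the p-values at 24 hpf measure the spread between these batches. That spread is pooled almost wholly over the miRNAs tested and owes little to the batches of a single member. The columns of the 48 hpf libraries are named by single letters, and only the sample descriptions and titles assign these to a morpholino. The fold changes that the study lists for that stage run the opposite way for nearly all the miRNAs listed, let-7g among them. The study also reports that quantitative RT-PCR followed its listed directions for most of the miRNAs checked. Every direction between the 48 hpf libraries is therefore given as labelled, which is opposite to the study's own for let-7g. Changes from 24 to 48 hpf within a morpholino rest on the names of the 48 hpf libraries too. Whether the names of these libraries were exchanged was not tested. In whole embryos, fewer cells of a type and less RNA per cell cannot be told apart.

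At 24 hpf the family was carried by dre-let-7a, dre-let-7g and dre-let-7e. Let-7a lay at 366 and 388 normalized reads in MO-Ct and at 313 and 362 in MO-Tbx5a. Let-7g lay at 285 and 331 in MO-Ct and at 340 and 368 in MO-Tbx5a. Let-7a and let-7g overlapped over the 4 libraries, and both lay above every value of let-7e, which ran from 166 to 234. These are levels of mature miRNAs of like length, not corrected for differences in adapter ligation. A middle group followed, with dre-let-7c at 31.9 to 83.6, dre-let-7j at 34.6 to 76.7, dre-let-7i at 35.9 to 67.1, dre-let-7f at 18.7 to 34.9 and dre-let-7h at 12.0 to 25.1. Within it let-7c, let-7i and let-7j overlapped, as did let-7f and let-7h, while all values of let-7i were above all of let-7f. Dre-let-7d and dre-let-7b were at the edge of detection, with 2 to 4 reads and 0 to 4 reads per library. The 0 reads of let-7b in MO-Tbx5a batch 1 allow up to 5.61 normalized reads in that library, the value of 3 reads.

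**Figure D1:**
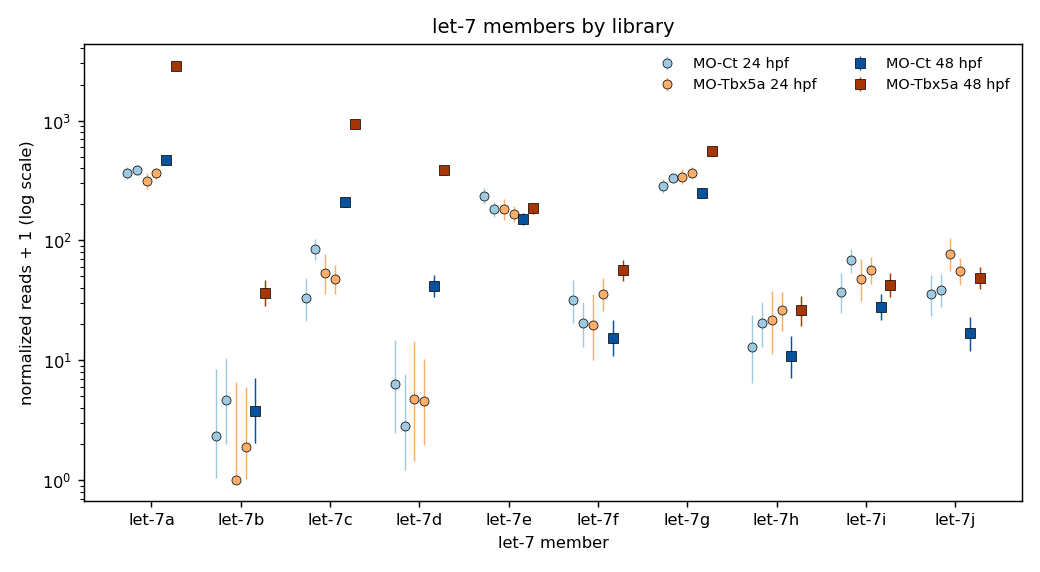
Normalized reads plus 1 on a log scale for each let-7 member, with circles for the 4 libraries at 24 hpf and squares for the 2 libraries at 48 hpf, and bars for 95% Poisson intervals of the reads (for 0 reads, up to the value of 3 reads). Let-7a, let-7c and let-7d lay above all 24 hpf libraries in both 48 hpf libraries, and at 48 hpf the square of MO-Tbx5a is above that of MO-Ct for each of the 10 members.

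No let-7 member changed with tbx5a knockdown at 24 hpf in the test used. The family sum over the 10 members was 1036 and 1132 normalized reads in MO-Ct and 1053 and 1116 in MO-Tbx5a. Its mean was 1084 ± 68.1 (SD, n = 2) in MO-Ct and 1085 ± 44.4 (SD, n = 2) in MO-Tbx5a, and the groups overlapped. For 5 of the 10 members, let-7a, let-7b, let-7g, let-7h and let-7j, the MO-Tbx5a batches did not overlap the MO-Ct batches, against 52.4% of the 210 miRNAs tested at that stage. That share is near the background. Let-7b and let-7d were outside those 210 miRNAs, and let-7b had only 0 to 4 reads per library. The limma test used log2 of the normalized reads plus 2 with Benjamini-Hochberg adjustment. It called 7.62% of the 210 miRNAs at an adjusted p under 0.05, 3.33% higher and 4.29% lower in MO-Tbx5a. Of the 8 members tested it called 0, and 1 had an unadjusted p under 0.05. That member was let-7j, with 34.6 and 37.7 normalized reads in MO-Ct and 76.7 and 54.6 in MO-Tbx5a. Its batches did not overlap, and the difference was 0.81 on the log2 scale (SE 0.36, limma adjusted p = 0.136).

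The other members tested at 24 hpf lay closer together between morpholinos. Let-7h had 12.0 and 19.3 normalized reads in MO-Ct against 20.6 and 25.1 in MO-Tbx5a, a difference of 0.52 (limma adjusted p = 0.589). Let-7a, let-7c, let-7e, let-7f, let-7g and let-7i differed by -0.24 to 0.20 on the log2 scale, with adjusted p of 0.626 or above by limma. Let-7c and let-7i had their widest gap inside MO-Ct, where batch 2 was above batch 1 (83.6 against 31.9 and 67.1 against 35.9 normalized reads). Let-7b and let-7d were below the filter of 10 normalized reads in at least 2 libraries and were not tested. A limma fit with voom weights on the recovered reads, added after the data were seen, also called 0 members. The smallest p that an exact permutation of 2 libraries against 2 allows is 0.333.

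From 24 to 48 hpf, let-7a and let-7c rose, let-7d went from at most 4 reads per library to 706 reads in the library where it was highest, and the other members tested did not pass the test in either direction. Over the 6 libraries, with stage and morpholino in the model, limma called 52.3% of 214 miRNAs, 18.7% higher at 48 hpf and 33.6% lower. Let-7b was below the filter, and let-7d passed it only through the 48 hpf libraries, where it was high, so its call of higher was fixed in part by the filter and is not counted here. Of the 8 members that passed the filter on the 24 hpf libraries, limma called 2 higher and 0 lower, against 18.1% higher among the 210 miRNAs that did so. That share is near the background. The median log2 change was -0.30 over those miRNAs and -0.0024 over the 8 members.

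Let-7c, which has 2 gene copies, went from 31.9 and 83.6 normalized reads in MO-Ct and 52.4 and 46.6 in MO-Tbx5a at 24 hpf to 209 in MO-Ct and 932 in MO-Tbx5a at 48 hpf. Both later libraries lay above every earlier one. The change was 3.08 on the log2 scale (SE 0.57, limma adjusted p = 0.00480), and the call was kept without each library in turn, with changes of 1.97 to 4.18. Let-7d went from 4, 2, 2 and 4 reads in the 24 hpf libraries, which were 1.84 to 5.32 normalized reads, to 40.8 normalized reads in MO-Ct and 386 in MO-Tbx5a. Their 95% Poisson intervals were 32.7 to 50.3 and 358 to 416, while the highest upper bound at 24 hpf was 13.6, so neither interval reached the 24 hpf libraries. The fitted change of 4.56 (SE 0.73) depends on the pseudocount at such low reads and is given without a test.

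Let-7a rose less evenly. From 313 to 388 normalized reads at 24 hpf it went to 472 in MO-Ct and 2845 in MO-Tbx5a at 48 hpf. Both values lay above the 24 hpf range, with MO-Ct close to it and MO-Tbx5a far from it. The change was 1.70 (SE 0.55, limma adjusted p = 0.0362). Without the 48 hpf MO-Tbx5a library the change was 0.32 (adjusted p = 0.292), and the call was also lost without MO-Ct batch 2, MO-Tbx5a batch 1 or MO-Tbx5a batch 2 at 24 hpf, with adjusted p of 0.0536 to 0.0916 by limma. It was lost without the variance trend too (adjusted p = 0.0531). Of the 8 members that passed the filter on the 24 hpf libraries, let-7a and let-7c had both 48 hpf libraries above all 4 at 24 hpf. Of all miRNAs tested, 25.2% did. In MO-Ct alone the same members were above, against 29.9%. Let-7d lay above in both 48 hpf libraries too, but it entered the miRNAs tested only through them. Members with both 48 hpf libraries below all 4 at 24 hpf numbered 0, against 39.7%. Each other scaling moved the 48 hpf libraries up against the 24 hpf ones, so it was no strict check of members already above. Let-7a, let-7c and let-7d stayed above under each. They were joined by let-7b under library totals with and without miR-430 and by let-7e and let-7g under library totals alone. For 2 libraries against 4 the smallest two-sided p of an exact permutation of ranks is 0.133.

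The remaining members tested did not pass the test with stage, and their 48 hpf libraries lay on different sides of the 24 hpf range. In the MO-Ct library at 48 hpf let-7e, let-7f, let-7g, let-7h, let-7i and let-7j, 6 of the 10 members, were below all 4 libraries at 24 hpf, against 46.7% of all miRNAs tested. Let-7g had 249 normalized reads there, let-7e 150 and let-7i 27.1. Let-7j had 15.9, against at least 34.6 at 24 hpf. In the MO-Tbx5a library let-7e (184), let-7i (41.6) and let-7j (47.6) were within the 24 hpf range. Of the 8 members that passed the filter on the 24 hpf libraries, the others, let-7a, let-7c, let-7f, let-7g and let-7h, were above it. Of all miRNAs tested, 31.8% were above it. Let-7b and let-7d were above it too, but let-7b was outside the miRNAs tested. Let-7d entered them only through the 48 hpf libraries, where it was high. For let-7h the margin was the least, at 25.2 against 25.1. The fitted changes with stage ran from -0.76 for let-7j (limma adjusted p = 0.0952) to 0.19 for let-7f (adjusted p = 0.781).

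These directions rest on the scaling of the libraries. The miR-430 family, which clears maternal mRNAs in the zebrafish embryo, took 46.0% to 58.7% of the normalized reads at 24 hpf, 15.2% in MO-Ct and 5.15% in MO-Tbx5a at 48 hpf. Scaling to library totals moved the 48 hpf libraries up against the 24 hpf ones by 1.40 on the log2 scale, totals without miR-430 by 0.48 and median-ratio size factors by 0.31. The number of members with the MO-Ct library below all 24 hpf libraries was then 0, 1 (let-7j) and 4 (let-7f, let-7h, let-7i and let-7j). As deposited, the median log2 change with stage in MO-Ct was -0.21 over all miRNAs and -0.37 over the 10 members. In MO-Tbx5a it was -0.43 over all miRNAs and 0.85 over the 10 members. These members include let-7b, which was outside the miRNAs tested, and let-7d, which entered them only through the 48 hpf libraries.

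In the 48 hpf pair, as labelled, MO-Tbx5a exceeded MO-Ct for each of the 10 members, and by at least 2-fold for 8 of them. Let-7b and let-7h reached 10 normalized reads only in MO-Tbx5a, the library where they were high. Of the 8 members that reached 10 in both libraries, 6 were at least 2-fold higher, against 14.8% of the miRNAs that did so. With a pseudocount of 10, 7 of the 10 members were at least 2-fold higher. Among all miRNAs that reached 10 normalized reads in either library, 47.9% were higher in MO-Tbx5a, 16.4% were at least 2-fold higher and 9.13% at least 2-fold lower. Each group had 1 library at this stage, so the ratios have no replicate check and no test. The family sum was 1191 normalized reads in MO-Ct and 5108 in MO-Tbx5a, 4.29-fold higher, where the 4 sums at 24 hpf had spanned 1036 to 1132. The median log2 ratio was 1.64 over the 10 members, let-7b and let-7h included, and -0.06 over all miRNAs.

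**Figure D2:**
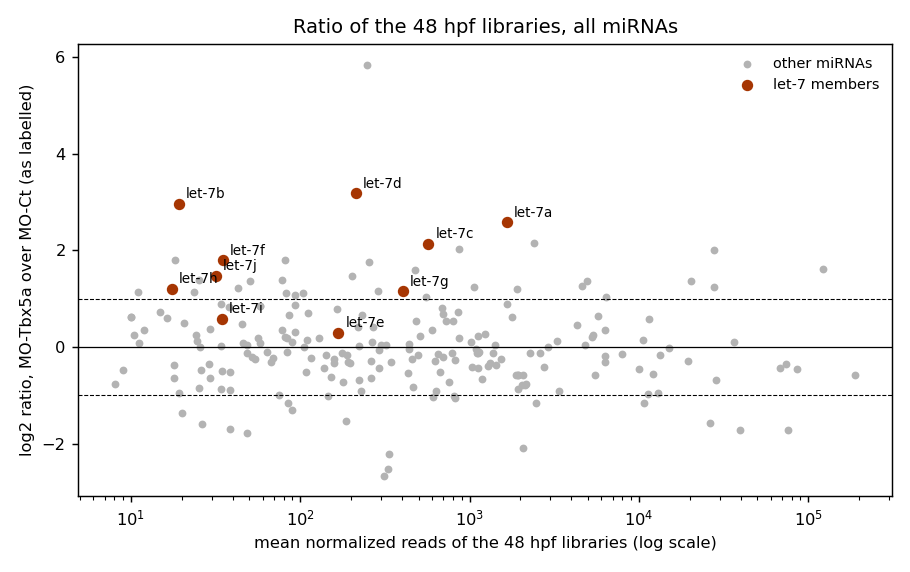
Log2 ratio of MO-Tbx5a to MO-Ct at 48 hpf, on normalized reads plus 2, against the mean normalized reads of both libraries on a log scale, with let-7 members in red and all other miRNAs in grey. All 10 members lie above 0, and 8 lie above the dashed line at a 2-fold difference.

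The members with the widest log2 ratios were let-7d, let-7b, let-7a and let-7c. Let-7d had 40.8 normalized reads in MO-Ct and 386 in MO-Tbx5a, a log2 ratio of 3.18. Let-7b had 6 reads in MO-Ct and 65 in MO-Tbx5a, which were 2.80 and 35.6 normalized reads. Their ratio was 12.7 with an exact 95% counting interval of 5.54 to 35.9, and their log2 ratio after the pseudocount was 2.97. Let-7b was thus low in every library but this one. Let-7a was 6.03-fold higher, with a counting interval of 5.64 to 6.46, and let-7c 4.45-fold higher, with an interval of 4.01 to 4.95. For let-7c the log2 ratio of 2.14 stood beside a log2 ratio of 1.34 between the MO-Ct batches at 24 hpf. For let-7a the same values were 2.59 and 0.09, with 0.21 between the MO-Tbx5a batches.

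The other members had lower ratios and less of the family's reads. Let-7f had 14.5 normalized reads in MO-Ct and 55.3 in MO-Tbx5a, a log2 ratio of 1.80. Let-7j had 15.9 and 47.6 (1.48), let-7h 9.79 and 25.2 (1.20) and let-7g 249 and 555 (1.15). For let-7f, let-7g and let-7h the MO-Ct library was below and the MO-Tbx5a library above all 4 libraries at 24 hpf, 3 of the 10 members against 1.87% of all miRNAs tested. Under library totals, with or without miR-430, no member had that arrangement, and under median-ratio size factors let-7f and let-7h had it. Let-7i, with 27.1 and 41.6, and let-7e, with 150 and 184, had the narrowest log2 ratios, 0.59 and 0.29. The ratios of let-7e and let-7i were within the widest log2 ratio between batches of their own at 24 hpf, and those of the other members were beyond it. A wider limit was the 99th percentile of batch ratios at 24 hpf over the 100 miRNAs closest in level. Let-7a, let-7b, let-7c, let-7d, let-7f and let-7g were beyond that. Neither limit was applied to all miRNAs, so no background share stands beside these members. Let-7b and let-7h reached 10 normalized reads only in MO-Tbx5a, where they were high. Let-7f (1.80 against a limit of 1.79) and let-7g (1.15 against 1.10) were only just beyond it, and let-7h and let-7j, with limits of 1.79, were not. The sign of all 10 held under every scaling run. These scalings shifted the 48 hpf libraries against each other by only -0.0029 to 0.16 on the log2 scale, so the signs could hardly have changed.

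The difference between morpholinos was next compared between stages, as the interaction of stage and morpholino over the 6 libraries. Limma called 33.2% of 214 miRNAs, 15.9% higher in this contrast and 17.3% lower. Of the 8 members that passed the filter on the 24 hpf libraries it called 3 higher, let-7a, let-7c and let-7g, and 0 lower, against 15.7% higher among the miRNAs that did so. The median was -0.09 over those miRNAs and 0.82 over the 8 members. Let-7d entered this fit only through the 48 hpf libraries, where it was high, and is given without a test. This test takes its spread from the 24 hpf batches alone, pooled over the miRNAs tested. It assumes that the lone libraries at 48 hpf vary like them, so its p-values do not measure variation at 48 hpf. With the names of the 48 hpf libraries exchanged, 0 of the 9 members in the fit, let-7d included, were called higher and 5 lower. The exchange reverses the sign of every 48 hpf ratio, so this change of side was fixed by arithmetic.

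**Figure D3:**
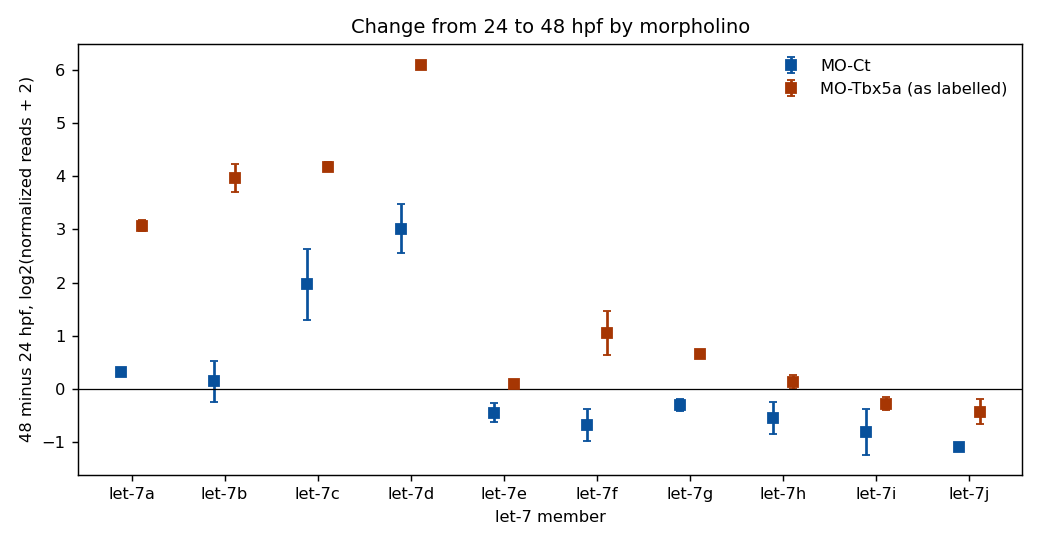
Change from 24 to 48 hpf on log2 of normalized reads plus 2 for each let-7 member, in MO-Ct (blue) and in MO-Tbx5a as labelled (red), with bars for the distance from the mean of the 24 hpf batches to either batch. The red square lies above the blue one for each of the 10 members, and the gap is widest for let-7b, let-7d, let-7a and let-7c.

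Let-7a changed by 0.32 from 24 to 48 hpf in MO-Ct and by 3.07 in MO-Tbx5a, an interaction of 2.75 (SE 0.34, limma adjusted p = 1.55e-13, and 0.0136 without the variance trend). Its call was kept without each 24 hpf library in turn, with values of 2.65 to 2.85. Let-7c changed by 1.97 and 4.18, an interaction of 2.21 (SE 0.48, limma adjusted p = 5.07e-05). That call was lost without MO-Ct batch 2 (1.54, adjusted p = 0.103), without the variance trend (adjusted p = 0.124) and under library totals with and without miR-430 (adjusted p = 0.0981 and 0.0930).

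Let-7d changed by 3.01 in MO-Ct and 6.10 in MO-Tbx5a, an interaction of 3.09 (SE 1.11) that rests on 2 to 4 reads per library at 24 hpf. Let-7g changed by -0.30 and 0.65, an interaction of 0.95 (SE 0.36, limma adjusted p = 0.0288). The call of let-7g was lost without MO-Ct batch 1, MO-Ct batch 2 or MO-Tbx5a batch 1, with adjusted p of 0.102 to 0.178, and under library totals with and without miR-430 or without the variance trend, with adjusted p of 0.0872 to 0.121 by limma. Let-7f had the next value, 1.73 (SE 0.83, limma adjusted p = 0.0983), and let-7e, let-7h, let-7i and let-7j had 0.53 to 0.69 with adjusted p of 0.338 or above.

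The make-up of the family does not depend on how libraries are scaled. Let-7a, let-7c and let-7d together were 38.9% and 41.9% of the family's reads in MO-Ct and 35.0% and 36.9% in MO-Tbx5a at 24 hpf. At 48 hpf they were 60.6% in MO-Ct, with a 95% Wilson interval of 58.7% to 62.5%, and 81.5% in MO-Tbx5a, with an interval of 80.7% to 82.3%. The 4 earlier libraries lay together, and the 2 later ones lay above them and apart from each other. These members are the 3 that lay above all 24 hpf libraries in both 48 hpf libraries. Their larger share at 48 hpf thus follows in part from that choice, and let-7d passed the filter only through the 48 hpf libraries. Let-7g went the other way, from 27.5% to 32.9% at 24 hpf to 20.9% (Wilson interval 19.4% to 22.5%) in MO-Ct and 10.9% (10.2% to 11.5%) in MO-Tbx5a. In normalized reads, let-7a to let-7d summed to 369 to 477 at 24 hpf, 725 in MO-Ct and 4199 in MO-Tbx5a at 48 hpf, and let-7e to let-7j to 632 to 704, 466 and 909. That split keeps the 3 members above the 24 hpf range together, so its contrast follows in part from the choice. Let-7b and let-7d reached 10 normalized reads only at 48 hpf.

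**Figure D4:**
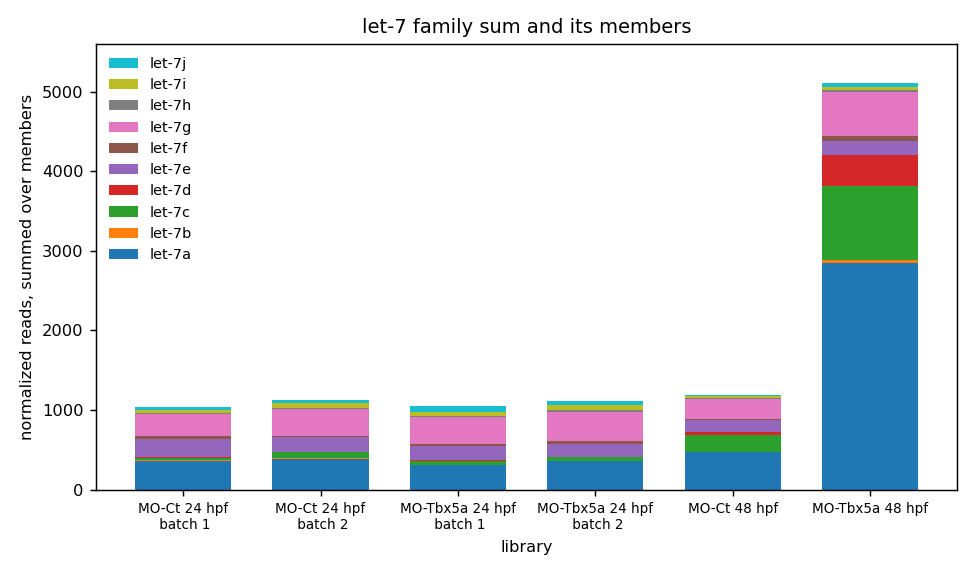
Normalized reads of the let-7 members stacked for each of the 6 libraries. The 4 libraries at 24 hpf sum to 1036 to 1132, MO-Ct at 48 hpf to 1191 and MO-Tbx5a at 48 hpf to 5108, where let-7a alone gives 2845.

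The family stayed a minor part of all mature miRNA reads. It was 0.0325% to 0.0424% of them at 24 hpf, 0.10% in MO-Ct and 0.481% in MO-Tbx5a at 48 hpf. Without the miR-430 reads these shares were 0.0664% to 0.0847%, 0.118% and 0.507%. On either share both 48 hpf libraries lay above all 4 at 24 hpf, MO-Ct by less without miR-430.

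Members can share reads. The 10 members came from 18 of the 286 rows of the table, 1 for each pair of a precursor and a mature miRNA, and the 6 let-7a rows differed by at most 2.17% in any library, so the rows of a member appear to hold nearly the same reads and were averaged. The authors mapped reads at 95% identity, and a read of 22 bases with 1 mismatch has 95.5%, so reads of a member could also be placed on another member that differs from it by 1 base. How far this moved reads between members was not tested.

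Several let-7 genes lie beside genes of the miR-99, miR-100 and miR-125 families, whose mature miRNAs are often made from the same transcript. In the RefSeq annotation of the assembly GRCz12tu, which lists 18 let-7 genes, mirlet7a-2 and mirlet7a-4 each had a mir100 and a mir125b gene within 10 kb, and mirlet7c-1 had a mir-99 gene and mir125c. The second let-7c gene had a mir-99 gene. Among let-7 genes themselves, let-7b lay beside mirlet7a-3, let-7e beside mirlet7a-5, let-7f beside mirlet7a-1 and let-7h beside mirlet7g-2. No miRNA gene lay that near to either let-7d gene, to let-7i or to let-7j.

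All 5 measured miRNAs of these families, miR-99, miR-100, miR-125a, miR-125b and miR-125c, rose from 24 to 48 hpf. The annotation places no mir125a gene within 10 kb of a let-7 gene. Their log2 changes were 0.89 to 4.08, with limma adjusted p of 0.000578 to 0.00861, where 18.7% of all miRNAs tested were called higher. Both 48 hpf libraries lay above all 4 at 24 hpf for each of them, against 25.2% of all miRNAs tested. MiR-125a, a homologue of the worm developmental timing miRNA lin-4, went from 85.1 to 138 normalized reads at 24 hpf to 873 in MO-Ct and 3918 in MO-Tbx5a. MiR-99, the neighbour of both let-7c genes, went from 101 to 132 to 536 and 861. Both were thus far above their 24 hpf range at 48 hpf. The interaction was 2.64 for miR-125a, 1.55 for miR-125b and 0.60 to 0.82 for miR-99, miR-100 and miR-125c. It rests on 1 library per morpholino at 48 hpf. At 24 hpf limma called 0 of the 5 between morpholinos, against 7.62% of the miRNAs tested there. MiR-125c and miR-100 had the narrowest log2 ratios between the 48 hpf libraries among the 5, at 0.28 and 0.35, where let-7c and let-7a had 2.14 and 2.59.

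Marker miRNAs of stage and tissue also differed between the 48 hpf libraries. MiR-430a, miR-430b and miR-430c fell from 24 to 48 hpf, with log2 changes of -3.58, -4.11 and -4.17 (limma adjusted p of 0.000578 to 0.00119), and their log2 ratios of MO-Tbx5a to MO-Ct at 48 hpf were -1.71, -1.71 and -2.10. The nervous system list (miR-9-5p, miR-124, miR-138 and miR-219) summed to 3127 to 4781 normalized reads at 24 hpf, 14088 in MO-Ct and 49401 in MO-Tbx5a at 48 hpf, and 3 of its 4 miRNAs were higher in MO-Tbx5a. MiR-9-5p alone gave 11063 and 44772 of those sums. By limma, 3 of the 4 were called higher at 48 hpf, against 18.7% of all miRNAs tested, and 3 higher in the interaction, against 15.9%.

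The skin list of miR-203 arms and miR-205 summed to 56185 to 64960 at 24 hpf and then to 37819 in MO-Ct and 26638 in MO-Tbx5a, and 0 of its 4 miRNAs were higher in MO-Tbx5a. By limma, 4 of the 4 were called lower at 48 hpf, against 33.6% of all miRNAs tested, and 3 lower in the interaction, against 17.3%. The muscle list of miR-1, miR-133 and miR-206 summed to 6738 to 9381, 12888 and 10381, with 0 of 7 higher in MO-Tbx5a, against the same 47.9%. MiR-133a-3p alone gave 1716 to 2597, 8369 and 7518 of those sums. MiR-206 and miR-133b-5p lay below all 4 libraries at 24 hpf in both 48 hpf libraries. By limma, 2 of the 7 were called higher at 48 hpf and 2 lower, against 18.7% and 33.6%. In the interaction 0 were called higher and 1 lower, against 15.9% and 17.3%. The blood list of miR-142a, miR-144, miR-223 and miR-451 summed to 137 to 262, 261 and 521. Of its 5 miRNAs 3 were higher in MO-Tbx5a, which is near the background of 47.9%. At 48 hpf miR-451 had 106 in MO-Ct and 299 in MO-Tbx5a, and miR-144 had 64 and 143. MiR-142a-5p had 47.6 and 49.3, while miR-142a-3p (20.5 and 15.3) and miR-223 (22.4 and 13.7) were lower. By limma, 1 of the 5 was called higher at 48 hpf, against 18.7%, and 2 in the interaction, against 15.9%. The liver miRNA miR-122 had 1.84 to 9.36, 13.1 and 37.2, and miR-499, of heart and skeletal muscle, had 99.2 to 140, 222 and 134. No marker list was wholly at 0 in any library. The part of stage or tissue make-up in the let-7 ratios was not tested.

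The miRNAs whose course over the 6 libraries was most like that of the let-7 family sum were miR-135c, miR-124, miR-181a-5p, miR-2188-5p and miR-153a. Likeness was the root mean square difference of log2 values, each centred on its mean over the libraries, and these 5 of the 205 miRNAs compared had 0.147 to 0.347. MiR-135c had 22.5 to 25.7 normalized reads at 24 hpf, 35.0 in MO-Ct and 127 in MO-Tbx5a at 48 hpf. MiR-124, a neuronal miRNA, had 135 to 176, 236 and 721. MiR-181a-5p, the most abundant of them, had 31360 to 34418, 59966 and 184767. MiR-2188-5p had 55.5 to 59.8, 115 and 394, and miR-153a had 199 to 253, 360 and 741. Each of the 5 lay above its 24 hpf range in MO-Ct at 48 hpf and was highest in the library labelled MO-Tbx5a. The family sum rose less in MO-Ct, to 1191 from at most 1132 at 24 hpf.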

How the data were processed

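Small RNA libraries of whole embryos were sequenced, with reads handled by CASAVA 1.8 per the submitters' processing notes. The authors trimmed adapters, kept reads of 17 to 38 bases, mapped them to zebrafish miRBase precursors with miRExpress at 95% identity and a length tolerance of 4 bases, and divided each library by its DESeq size factor. What the authors deposited is thus a signal, called normalized reads here. Rows of a mature miRNA were averaged.

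In each 24 hpf library 100% of values were whole multiples of a step within 0.1 reads, and at 48 hpf 99.7% and 99.6%. The step was taken as 1 read. Reads differed between batches beyond counting error (chi-square over its degrees of freedom 298 in MO-Ct, 171 in MO-Tbx5a), so the batches were kept as separate samples.

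Limma 3.58.1 in R 4.3.3 was fitted, trend included, to log2 of the value plus 2, keeping miRNAs that reached 10 normalized reads in 2 or more libraries of the fit. The pseudocount understates the changes of low miRNAs. Limma weighs the variance of each miRNA against a trend over all of them, by residual and prior degrees of freedom. These were 2 and 267 at 24 hpf, 3 and 4.09 for stage, and 2 and infinite for the interaction. Tests were two-sided, with a call at a Benjamini-Hochberg adjusted p under 0.05 over all miRNAs tested. The scripts were tested on simulated data. Python 3.11.15, numpy 2.4.6 and pandas 2.3.3 were used. Alternatives were other scalings, pseudocounts, filters and fits, and leaving out each library. The named miRNAs are all let-7 members, the miR-99, miR-100 and miR-125 partners, miR-430a, miR-430b and miR-430c, the tissue marker lists and the 5 miRNAs most like the family sum. The members and lists were chosen with earlier results of these data known.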

Additional observations from a re-analysis of the deposited data

Results flagged for a closer look

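The interaction of stage and morpholino passed the limma threshold for 33.2% of all miRNAs tested and for 4 members. It was 2.75 for let-7a, 2.21 for let-7c, 3.09 for let-7d and 0.95 for let-7g on the log2 scale. With the names of the 48 hpf libraries exchanged all 4 had the opposite sign. That follows from arithmetic, since the exchange reverses the 48 hpf ratio, and is no test of the names. The threshold uses the spread of the 24 hpf batches, since there was 1 library per morpholino at 48 hpf, and let-7d entered only through its high values there. At the same stage miR-430a, miR-430b and miR-430c were lower and the nervous system miRNAs miR-9-5p, miR-124 and miR-138 higher in the library labelled MO-Tbx5a. MiR-219, also on the nervous system list, was lower there, with 1629 normalized reads in MO-Ct and 1251 in MO-Tbx5a. Groups of 1 or 2 libraries were too small to look for outlying libraries.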

How the results depend on the processing

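At 24 hpf the number of all miRNAs called, 16, was 0 under library totals, 6 under median-ratio size factors, 2 under totals without miR-430, 1 without the variance trend and 0 to 14 without each library, while 0 members were called under each of these. Let-7a (0.025) and let-7c (0.11) reversed under totals without miR-430, and leaving out a library gave -0.74 to 0.60 for let-7c, -0.35 to 0.49 for let-7f and -0.38 to 0.48 for let-7i. Counts of members for stage and interaction include let-7d here, and are 3 and 4 under the settings of the report. For 48 against 24 hpf, the 112 calls over all miRNAs were 166 under library totals. Under that scaling 5 members were higher, with let-7e at 1.21 and let-7g at 1.57. Let-7h (1.05), let-7i (0.79) and let-7j (0.56) reversed there without a call. Let-7e was 0.13 and 0.30, and let-7h 0.072 and 0.22, under median-ratio factors and totals without miR-430. Without each library, 1 to 3 members were higher and 0 to 1 lower (let-7j, -1.09, without the 48 hpf MO-Tbx5a library), and the change was -0.45 to 0.088 for let-7e, -0.68 to 1.05 for let-7f, -0.30 to 0.65 for let-7g and -0.55 to 0.14 for let-7h. For the interaction, the 71 calls over all miRNAs were 47 under library totals, 30 without the trend and 15 to 58 without each library, and the 4 members called higher were 2 under library totals, totals without miR-430 and no trend, and 2 to 4 without each library. With exchanged names 0 were higher and 5 lower, at -2.42 for let-7a, -2.08 for let-7c, -3.28 for let-7d, -0.053 for let-7e, -1.87 for let-7f, -1.35 for let-7g, -1.73 for let-7h, -0.64 for let-7i and -2.29 for let-7j. The log2 ratio of the family sum at 48 hpf, 2.10, was 2.39 with rows summed, 2.26 as a share of all reads and 1.65 without let-7a. Its change in MO-Ct, 0.14, was 0.28 with rows summed, 1.44 as a share of all reads, 0.71 as a share without miR-430 and 0.027 without let-7a. With exchanged names the MO-Ct sum at 48 hpf would be 5108 normalized reads in place of 1191, so this change rests on the names too. Except where a scaling itself moves the libraries, the cause was not tested.

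The replicate numbers share only a number, with 2 pairs at 24 hpf whose batch differences correlated across 210 miRNAs at r = 0.28. With the number as a replicate block, 39 miRNAs were called at 24 hpf, 105 for stage and 87 for the interaction, and let-7a lost its stage call (limma adjusted p = 0.0615). No other member's call changed with the block.

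A quasi-likelihood test on reads was planned and was not run, and voom weights took its place. Let-7b and let-7d rest on few reads at 24 hpf. At 48 hpf no replicate exists, so the depth of those libraries limits counting error only.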

Other observations

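Among the members themselves, let-7g and let-7h had the most similar course over the 6 libraries, with a root mean square difference of 0.253 between their centred log2 values. Let-7h and let-7i followed at 0.317 and let-7f and let-7g at 0.372. The let-7h gene lies beside the second let-7g gene in the annotation, while no miRNA gene lay within 10 kb of let-7i. The other pairs with neighbouring genes had 0.410 (let-7a and let-7b), 0.801 (let-7a and let-7f) and 1.12 (let-7a and let-7e). Let-7h had only 9 to 46 reads per library. A link between likeness and gene position was not tested.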
